A study of Canis lupus familiaris with 7 samples.

Results

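The dystrophin glycoprotein complex was followed in the dog left ventricle through 8 genes: DMD, UTRN, SGCA, SGCB, SGCD, DAG1, DTNA and LAMA2. They were chosen by name for their place in the complex, with the low-salt against control differences of these same arrays already known, so those differences are given as a description of the genes and support nothing beyond it. A probe set is a group of short probes read together as 1 value, which may match more than 1 transcript, and every probe set whose only gene symbol in the platform annotation was one of the 8 was taken. This gave 26 probe sets for 7 of the 8 genes, out of 42924 probe sets and 15115 named genes on the array. No probe set carried LAMA2 as its only symbol, and LAMA2 is not analysed here. Of the 26, 20 were bright enough to be tested, and the other 6 were among the dimmest, which were left out of testing: 2 each for SGCD and DTNA and 1 each for DMD and UTRN.

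All samples are from male dogs, and those on the diet were adult mongrels. The low-salt group (4 arrays, numbered 1 to 4) had eaten a diet of 0.5% sodium chloride for 2 weeks, and the control group (3 arrays, numbered 1, 3 and 4) has no diet or duration stated in the sources used here. Total left ventricular RNA was read on 1-colour Affymetrix canine arrays. The design text counts 10 dogs on the diet and compares 3 control with 4 low-salt dogs, but no label ties an array to its dog, so the errors below cover the spread between these arrays, which may be partly technical. Arrays have no read depth, and their small number limits the precision.

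Dystrophin, the product of DMD, is a long rod-shaped protein under the muscle cell membrane that ties the actin cytoskeleton to a membrane-spanning assembly. In that assembly dystroglycan (DAG1) binds laminin outside the cell, the sarcoglycans (among them SGCA, SGCB and SGCD) flank it in the membrane, and dystrobrevin (DTNA) docks on dystrophin from inside. Utrophin (UTRN) is a close relative of dystrophin, and laminin α2 (LAMA2) is the basement membrane ligand of muscle. Loss of dystrophin causes Duchenne muscular dystrophy in people and its counterpart in dogs, with cardiomyopathy in both.

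All values for genes are log2(deposited intensity + 16) after quantile normalization, which sets the 7 arrays to the same distribution, and differences are low salt minus control on that scale, which understates the change of dim probe sets. Errors of differences are standard errors (SE) or 95% intervals from limma, a linear model fitted to all tested probe sets at once. The signal of a probe set depends on its probes, so levels are compared between arrays, and a ratio of 2 probe sets is likewise compared only from array to array.

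The brightest dystrophin probe set showed no difference between the diets beyond its error, while another one fell, in every low-salt sample. Probe set CfaAffx.23.1.S1_at of DMD read 12.89, 12.80 and 12.47 in controls 1, 3 and 4 and 12.97, 12.39, 12.73 and 12.84 in low-salt samples 1 to 4. The groups overlapped fully. Its difference was 0.02 ± 0.15 (SE), with an interval from -0.30 to 0.33. Deposited intensities of this probe set were 4781 to 8072 in controls and 5709 to 8569 in low salt.

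Probe set Cfa.3738.1.S1_s_at of DMD stood at 7.16, 7.29 and 7.21 in controls 1, 3 and 4 and at 5.82, 5.88, 5.48 and 5.13 in low-salt samples 1 to 4. The 3 controls lay within a narrow band and every low-salt sample lay far below it. In deposited intensities the controls read 141, 139 and 151 and the low-salt samples 28.8, 30.9, 40.2 and 11.2. The group means were 7.22 ± 0.06 (SD, n = 3) and 5.58 ± 0.35 (SD, n = 4), and the difference was -1.64 ± 0.30 (SE), or 3.12-fold lower.

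In the limma fit this DMD probe set had an adjusted p (Benjamini-Hochberg, over all 28616 tested probe sets) of 0.0386. It was the 1 called member of the 20 tested, where 0.346% of all tested probe sets were called and 0.308% were called lower. Since the genes were chosen with this contrast known, nothing is read from that count. The call was lost without control 1 (adjusted p = 0.16), control 3 (0.153) or low-salt sample 1 (0.103), 2 (0.0917), 3 (0.0519) or 4 (0.148), and held without control 4 (0.0333), while the difference stayed between -1.71 and -1.45. It was also lost by the methods' t-test (adjusted p = 0.243).

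**Figure D1:**
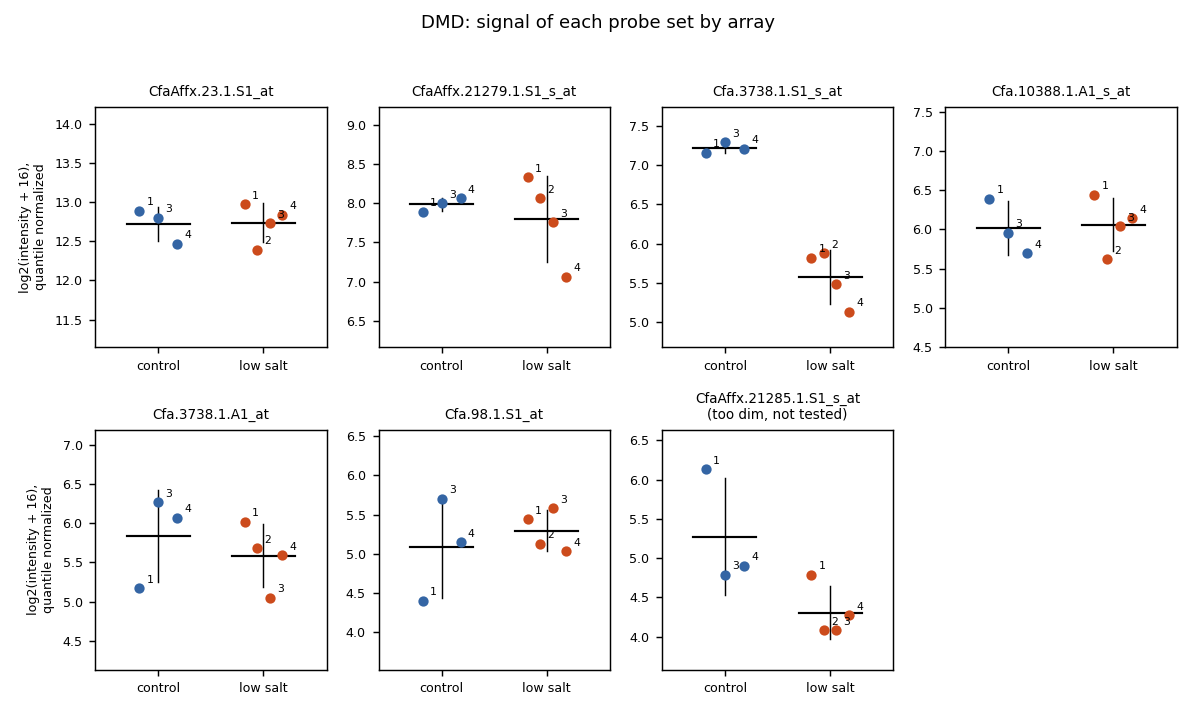
Each panel shows 1 DMD probe set, with log2(intensity + 16) after quantile normalization on the vertical axis and a point for each array (numbers are those of the samples), the mean as a horizontal bar and the SD as a vertical line; every panel spans the same range. Low-salt samples of Cfa.3738.1.S1_s_at lie at 5.13 to 5.88, all below the controls at 7.16 to 7.29, while the brightest probe set stays between 12.39 and 12.97.

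The other DMD probe sets that were tested did not separate the groups. CfaAffx.21279.1.S1_s_at, the next brightest, read 7.89, 8.0 and 8.06 in controls and 8.33, 8.06, 7.76 and 7.06 in low-salt samples 1 to 4, a difference of -0.18 ± 0.29 (SE). Low-salt sample 4 was the lowest and low-salt sample 1 the highest of the 7 arrays. Cfa.10388.1.A1_s_at read 6.39, 5.96 and 5.70 in controls and 6.44, 5.62, 6.04 and 6.14 in low salt, a difference of 0.05 ± 0.32 (SE).

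A further DMD probe set, Cfa.3738.1.A1_at, was designed on the same GenBank record as the one that fell. It read 5.17, 6.27 and 6.07 in controls and 6.02, 5.68, 5.05 and 5.59 in low salt, a difference of -0.25 ± 0.37 (SE). Control 1 and low-salt sample 3 were its lowest arrays, so both groups had a low value. Cfa.98.1.S1_at read 4.40, 5.70 and 5.15 in controls and 5.44, 5.13, 5.58 and 5.03 in low salt, a difference of 0.21 ± 0.39 (SE).

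The faintest DMD probe set, CfaAffx.21285.1.S1_s_at, was too dim to be tested. Its values were 6.13, 4.79 and 4.90 in controls and 4.79, 4.08, 4.08 and 4.27 in low salt, so it differed by -0.97, with control 1 far above the rest and the nearest arrays of the groups level to 2 decimals. In deposited intensities it read 67.6, 11.6 and 23.3 against 7.95, 0.519, 1.25 and 1.63, close to the bottom of the scale.

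Within each array the fall of Cfa.3738.1.S1_s_at can be set against other probe sets of the same gene, which removes a factor common to the whole array. It does not remove a shift confined to dim probe sets. The median deposited intensity was 19.3 to 21.8 in low-salt samples 1, 2 and 4 and 31.5 to 51.3 in controls. The deposited intensity of Cfa.3738.1.S1_s_at was 1.75%, 1.73% and 3.16% of that of the brightest DMD probe set in controls 1, 3 and 4. In low-salt samples 1 to 4 it was 0.337%, 0.541%, 0.69% and 0.153%. As a ratio to CfaAffx.21279.1.S1_s_at it was 0.606, 0.579 and 0.606 in controls and 0.0931, 0.123, 0.196 and 0.112 in low salt. Control ratios were nearly equal in the latter case, and in both cases the highest low-salt ratio was well below the lowest control ratio.

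Against Cfa.3738.1.A1_at, the probe set of the same record, the ratio ran from 1.95 to 5.63 in controls and from 0.563 to 1.65 in low salt, so these groups came closer. The numerator was picked as the probe set that fell, so these ratios describe the same contrast within each array and add no support to it. Which DMD probe set follows the amount of dystrophin transcript was not tested. The spread of differences over the 6 tested DMD probe sets was 1.85. Of the 61 genes with 6 or more tested probe sets, 10 (16.4%) had a spread at least as wide, and the median was 1.05. DMD itself is counted in both the 61 and the 10.

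**Figure D2:**
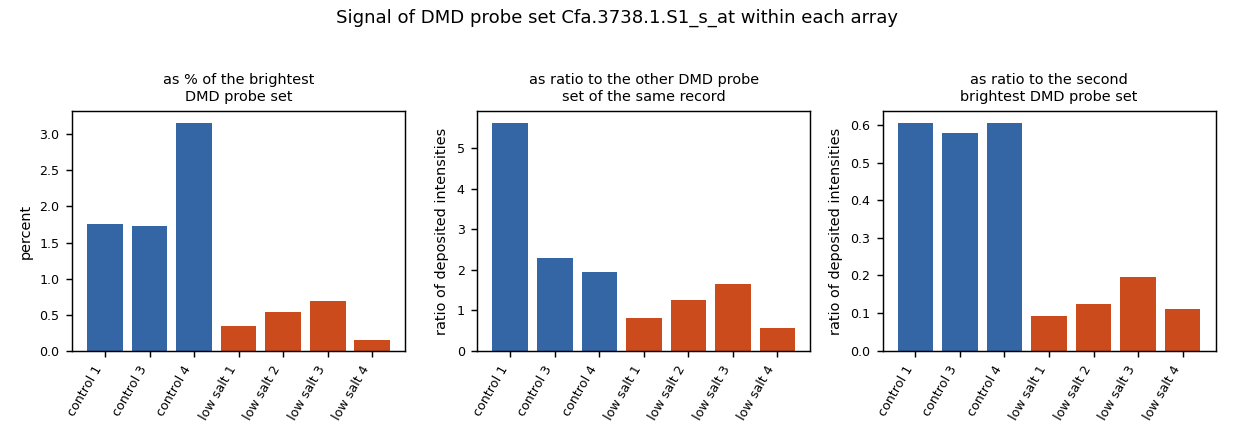
Bars give the deposited intensity of DMD probe set Cfa.3738.1.S1_s_at in each of the 7 arrays, as a percentage of the brightest DMD probe set (left) and as a ratio to 2 other DMD probe sets (middle and right). Low-salt bars (orange) are below all control bars (blue) in each panel, with 0.0931 to 0.196 against 0.579 to 0.606 on the right.

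The 2 tested probe sets of utrophin differed in opposite directions, each with an interval that includes 0. Cfa.4554.1.S1_s_at of UTRN read 5.86, 4.90 and 5.68 in controls and 6.22, 6.08, 6.19 and 6.01 in low-salt samples 1 to 4. After normalization every low-salt value lay above every control value. In deposited intensities the groups overlapped, at 53.3, 13.7 and 57 in controls and 43.9, 38.1, 75.3 and 32.2 in low salt. The difference was 0.65 ± 0.33 (SE), with an interval from -0.06 to 1.36 that includes 0. It did not reach an unadjusted p under 0.05 in limma.

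The other tested probe set of UTRN, CfaAffx.1431.1.S1_s_at, read 4.13, 7.19 and 5.47 in controls and 4.30, 4.65, 5.43 and 4.17 in low salt. Control 3 was by far its highest array and control 1 its lowest, and the difference was -0.96 ± 0.60 (SE). The interval ran from -2.25 to 0.33. Its deposited intensities were 1.71, 128 and 46.7 in controls and 2.24, 5.98, 38.1 and 0.955 in low salt, mostly near the bottom of the scale. It was bright enough to be tested, at a mean of 5.05, through its controls (5.59, against 4.64 in low salt). The remaining UTRN probe set, too dim for the test, differed by -0.39.

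Dystroglycan had 4 tested probe sets, and the brightest read lower in each low-salt sample than in any control. CfaAffx.17467.1.S1_at of DAG1 read 9.71, 9.23 and 9.80 in controls and 9.09, 9.07, 9.21 and 8.33 in low-salt samples 1 to 4. No low-salt value reached a control value, but low-salt sample 3 and control 3 were only just apart, and low-salt sample 4 was well below the rest. The difference was -0.65 ± 0.24 (SE), 1.57-fold lower, with an adjusted p of 0.359 in limma, so it did not pass. Over the alternative settings it lay between -0.83 and -0.13.

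The next DAG1 probe sets were bright as well and moved less. Cfa.2382.2.S1_at differed by -0.11 ± 0.22 (SE) and Cfa.2382.1.A1_at by -0.30 ± 0.24 (SE), with groups that overlapped, and both turned positive, to 0.39 and 0.13, when array medians were set equal. Cfa.8124.1.A1_a_at, a dim one, differed by 0.79 ± 0.43 (SE), from 4.17, 6.24 and 5.16 in controls against 5.86 to 6.16 in low salt. Its low-salt arrays were close together and its controls spread widely.

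The sarcoglycans, single-pass membrane proteins that stabilise the bond between dystrophin and dystroglycan, showed small positive differences within a wide error. The 6 tested probe sets of SGCA, SGCB and SGCD differed by 0.20 to 0.62, and the groups overlapped in each. With the values as deposited, 4 of the 6 turned negative (1 of SGCA, the SGCB one and both of SGCD).

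The brightest SGCA (α-sarcoglycan) probe set, Cfa.11916.1.S1_at, read 7.43, 7.86 and 6.80 in controls and 7.55, 7.96, 8.42 and 7.60 in low-salt samples 1 to 4, a difference of 0.52 ± 0.31 (SE). Low-salt sample 3 was highest and control 4 lowest. The other SGCA probe sets differed by 0.62 ± 0.34 (SE) and 0.20 ± 0.43 (SE).

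SGCB (β-sarcoglycan) is read by CfaAffx.3920.1.S1_at alone, which was dim at 5.27, 4.24 and 5.50 in controls and 5.29, 5.45, 5.30 and 5.10 in low salt, a difference of 0.29 ± 0.39 (SE). Control 3 was the low array here.

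The brightest SGCD (δ-sarcoglycan) probe set, CfaAffx.26923.1.S1_s_at, read 6.27, 5.99 and 4.30 in controls and 6.34, 6.37, 4.50 and 5.97 in low salt. Control 4 and low-salt sample 3 were both low and stood apart from the other 5 arrays. The difference was 0.27 ± 0.54 (SE), and the other tested probe set differed by 0.21 ± 0.51 (SE). The 2 dim ones differed by -0.32 and 0.33.

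Dystrobrevin, the cytoplasmic partner that also binds syntrophins, had overlapping groups in both tested probe sets. CfaAffx.27521.1.S1_s_at of DTNA read 8.03, 7.76 and 7.70 in controls and 8.31, 8.43, 8.08 and 7.88 in low-salt samples 1 to 4, a difference of 0.34 ± 0.23 (SE). Only low-salt sample 4 fell inside the control range. Cfa.17759.1.S1_at, with 7.34, 7.15 and 5.79 in controls against 6.18 to 6.46 in low salt, differed by -0.46 ± 0.36 (SE). The 2 dim DTNA probe sets differed by -1.01, from 5.20 to 5.96 down to 4.29 to 4.83 without overlap, and by -0.51. The former read 28.4 to 58.1 in deposited intensity in controls and 2.13 to 17.9 in low salt.

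**Figure D3:**
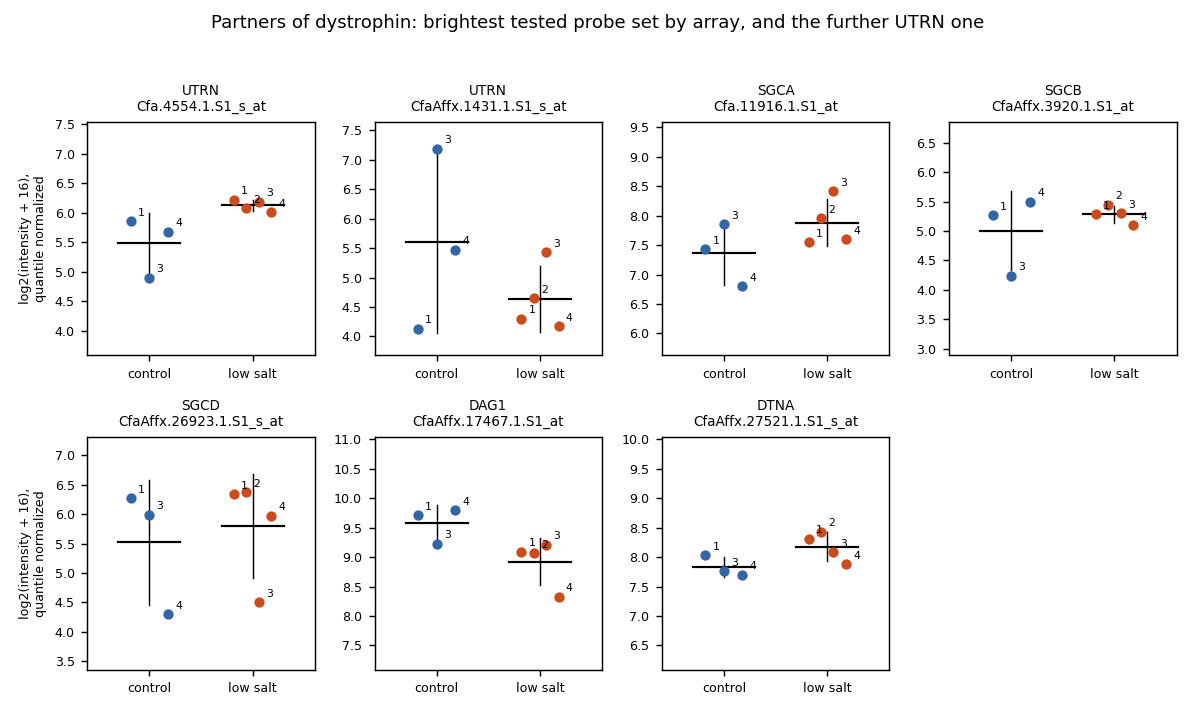
Panels show log2(intensity + 16) after quantile normalization for the brightest tested probe set of UTRN, SGCA, SGCB, SGCD, DAG1 and DTNA and for the second tested UTRN probe set, with a point per array, mean bars and SD lines, all spanning the same range. Only the first UTRN panel (low salt 6.01 to 6.22, controls 4.90 to 5.86) and the DAG1 panel (low salt 8.33 to 9.21, controls 9.23 to 9.80) show groups that do not overlap.

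Over the 20 tested probe sets the median difference was 0.12, against 0.04 over all tested probe sets, with 12 above 0 and 8 below. Without normalization the member median was -0.11 and that of all tested probe sets -0.18, and with equal array medians they were 0.32 and 0.26. At an unadjusted p under 0.05 stood 2 of the 20 (1 of DMD and 1 of DAG1, both lower), where 11.0% of all tested probe sets did. Groups did not overlap in 3 of the 20, the called DMD, the brighter UTRN and the brightest DAG1 probe sets, where 10.8% of all did. With 20 members, counts this small are read no further.

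**Figure D4:**
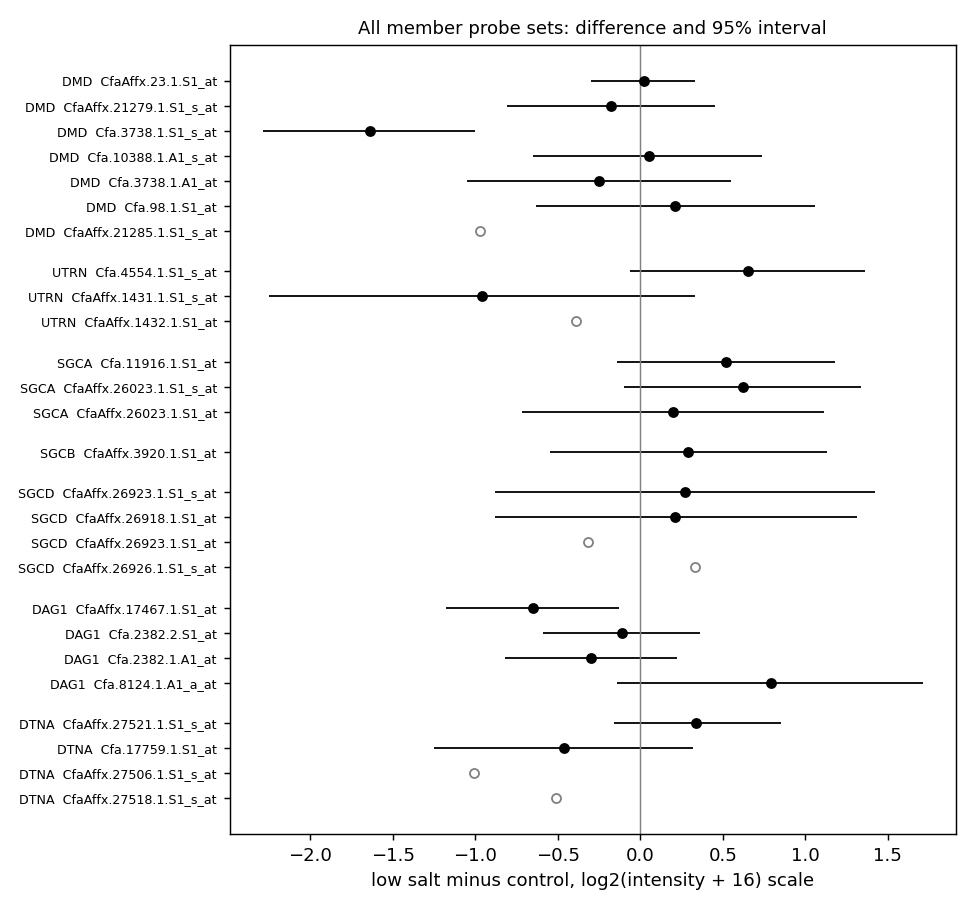
Each point is the difference, low salt minus control on the log2(intensity + 16) scale, of 1 of the 26 member probe sets, ordered by gene; lines are 95% intervals from limma, and open points are the 6 too dim to be tested, without an interval. Cfa.3738.1.S1_s_at of DMD (-2.29 to -1.0) and CfaAffx.17467.1.S1_at of DAG1 (-1.18 to -0.13) have intervals that leave out 0.

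A measure that does not use the contrast is how probe sets vary inside the groups. After the group mean was removed from each array, Pearson's r over the 7 arrays was computed for pairs of tested member probe sets, which share the same RNA and arrays, and it is given as a description. The 27 pairs of the same gene had a median r of -0.03, with 12 above 0, and the 163 pairs of different genes a median of -0.02. Over the whole array, the 12588 pairs of probe sets of the same gene had a median of 0.18, with 62.1% above 0. The median for member probe sets of 1 gene was thus close to that for different member genes.

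Within DMD the 15 pairs ran from -0.31 to 0.95. The brightest probe set went with Cfa.10388.1.A1_s_at (r = 0.95), and the one that fell went with CfaAffx.21279.1.S1_s_at (r = 0.94), while r was -0.31 between the brightest and the one that fell. The 2 tested UTRN probe sets had an r of -0.82, with CfaAffx.1431.1.S1_s_at near the bottom of the scale in most arrays. The probe sets most like the brightest DMD one by the same measure, among 19664 of other named genes, were those of RNF114 (r = 0.990), FBXO9 (0.988), THNSL1 (0.978), SPEG (0.977) and PLEKHO1 (0.974). An r of 0.9 or more was reached by 116 of the 19664, on 7 arrays.

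The wider setting of the complex was read through 59 other genes for further sarcoglycans, syntrophins, dystrobrevin β, laminins, the enzymes that glycosylate dystroglycan, and linked membrane and filament proteins. On the array 48 were named and 39 tested, with 80 tested probe sets. Of these 80, 11 stood at an unadjusted p under 0.05 (6 higher and 5 lower), and 2 passed the adjusted p in limma, both lower. The median difference was 0.16. The counts of the whole array given above, 11.0% and 0.346%, are the ones to set beside these.

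Some close partners of the complex were picked by name and are given whatever their values. Caveolin 3 (CAV3), the muscle caveolin, differed by 0.37 ± 0.18 (SE), ε-sarcoglycan (SGCE) by 0.36 ± 0.34 (SE), the syntrophins SNTB1 and SNTB2 both by 0.19 (SE 0.37 and 0.28), dystrobrevin β (DTNB) by 0.09 ± 0.41 (SE) and neuronal nitric oxide synthase (NOS1), which is held in the complex through syntrophin, by 0.25 ± 0.43 (SE). None of these reached an unadjusted p under 0.05 in limma.

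Agrin (AGRN), a heparan sulphate proteoglycan that binds dystroglycan from outside, fell in 1 of its tested probe sets. CfaAffx.29554.1.S1_s_at of AGRN read 8.15, 7.65 and 7.20 in controls and 4.50, 4.49, 6.0 and 5.54 in low-salt samples 1 to 4. Low-salt samples 1 and 2 were the lowest, and no low-salt value came near a control. Its deposited intensities were 276, 186 and 150 in controls and 4.31, 3.99, 65.6 and 18.8 in low salt. Low-salt samples 1 and 2 were thus near the bottom of the scale. The difference was -2.54 ± 0.41 (SE), 5.8-fold lower, with an adjusted p of 0.0211 in limma. Its size depended on the offset, at -3.49 and -1.56 with offsets of 1 and 64. The other tested AGRN probe set, Cfa.21572.1.S1_at, differed by 0.14 ± 0.29 (SE), with 5.79 to 6.23 in controls and 6.05 to 6.17 in low salt. The AGRN call was lost without control 1 (adjusted p = 0.146), control 3 (0.0935) or low-salt sample 1 (0.0842), 2 (0.0833) or 4 (0.0616).

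Calpain 3 (CAPN3), the muscle-specific protease whose loss causes a limb-girdle muscular dystrophy, fell as well. CfaAffx.16842.1.S1_at of CAPN3 read 7.44, 7.45 and 7.37 in controls and 5.30, 5.76, 6.21 and 6.01 in low salt. Controls were nearly level and every low-salt sample was lower. The difference was -1.60 ± 0.30 (SE), 3.04-fold lower, with an adjusted p of 0.0411 in limma. The 3 dim probe sets of CAPN3, left untested, gave differences of -0.70, -0.68 and -0.33. The CAPN3 call was lost without control 1 (adjusted p = 0.189), control 3 (0.16) or low-salt sample 1 (0.142), 2 (0.144) or 4 (0.13).

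The other genes of smallest p did not pass. Both desmin (DES) probe sets, for the intermediate filament of muscle, differed by 0.75 ± 0.27 (SE) and 0.77 ± 0.26 (SE). DPM3, a subunit of the enzyme that makes a mannose donor for glycosylation, differed by 0.93 ± 0.32 (SE), and its other probe set by 0.58. Laminin β1 (LAMB1) had probe sets at -1.25 ± 0.37 (SE) and -1.48 ± 0.53 (SE), while its brightest differed by -0.28. The one at -1.25 was near the bottom of the scale in low salt (4.59 to 12.2 in deposited intensity, against 41 to 87.3 in controls). It was bright enough to be tested through its controls. POMT2, which starts the sugar chain of dystroglycan, had one at -1.30 ± 0.45 (SE) and another at 0.81 ± 0.34 (SE), in opposite directions. Adjusted p in limma for these 4 genes was 0.249 or more.

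**Figure D5:**
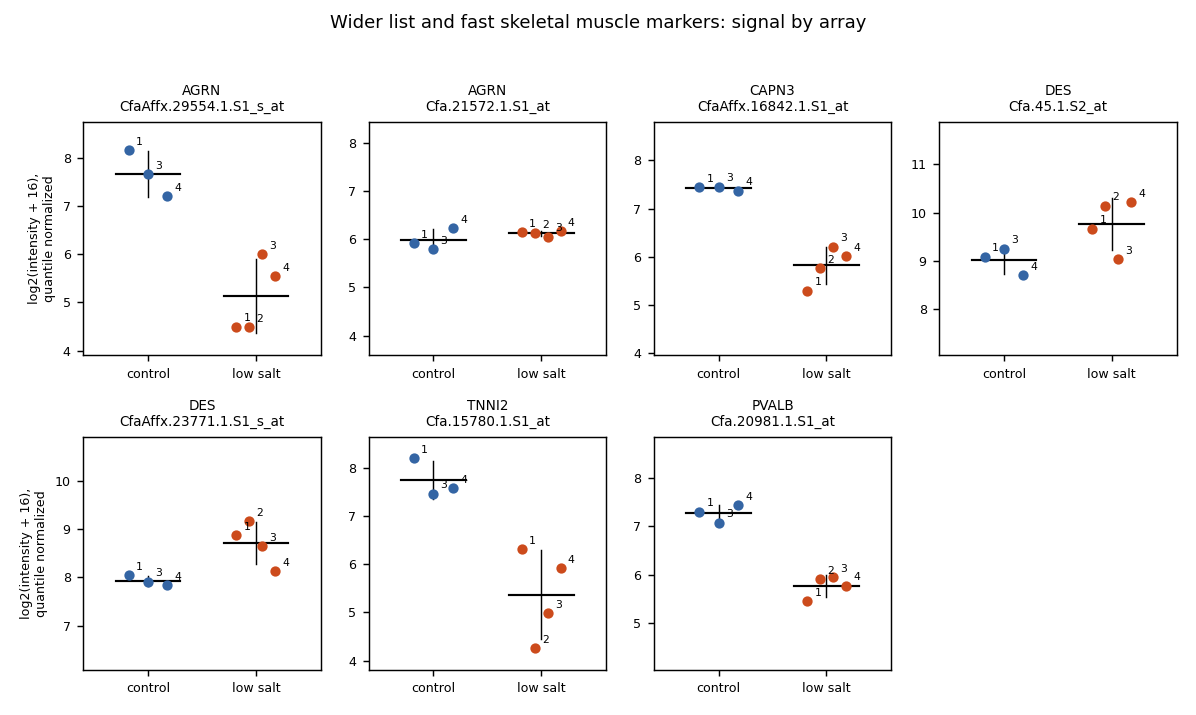
Panels show log2(intensity + 16) after quantile normalization by array for both tested AGRN probe sets, CAPN3, both DES probe sets and the fast skeletal muscle genes TNNI2 and PVALB, with a point per array, mean bars and SD lines, all spanning the same range. The first AGRN probe set, CAPN3, TNNI2 and PVALB are lower in every low-salt sample than in any control, while the second AGRN probe set stays between 5.79 and 6.23. The fast skeletal muscle markers not shown differed by 0.10 (MYH2), -0.35 (MYBPC2), 0.91 (ACTN3), -0.88 (MYH1) and -0.13 (TNNT3).

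Over the whole array 88 of the 99 called probe sets were lower, those of DMD, AGRN and CAPN3 among them. Of the fast skeletal muscle markers, 2 of 4 tested fell. The summed deposited intensity of this list (7 of 7 genes on the array, 4 tested) was 387 to 604 in controls and 107 to 226 in low salt, so the groups did not overlap (p = 0.0571 by an exact permutation test, two-sided, which 3 against 4 arrays cannot go below). Fast troponin I (TNNI2) fell by 2.38 and parvalbumin (PVALB) fell by 1.5 on the log2 scale, with adjusted p of 0.0411 and 0.0439 in limma, whereas MYH2 and MYBPC2 differed by 0.10 and -0.35. In controls TNNI2 (160 to 285 in deposited intensity) and PVALB (116 to 170) gave most of the summed intensity. The separation of the groups by the sum thus largely restates these 2 genes. ACTN3, MYH1 and TNNT3, defining genes of this fibre type, were too dim to be tested. ACTN3 went the other way, from 4.26 to 4.60 in controls and from 4.64 to 5.94 in low salt (a difference of 0.91), while MYH1 and TNNT3 differed by -0.88 and -0.13 with overlapping groups. The part of such RNA in the results above was not tested. In bulk tissue, fewer cells of a type and less RNA per cell cannot be told apart.

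Each marker gene, here and in the fast skeletal muscle list, was read by its brightest probe set alone. All 9 cardiomyocyte markers passed the filter on dim probe sets, as did all 7 fibroblast, 5 endothelial, 5 smooth muscle and 5 macrophage markers. Passing it thus does not tell the tissue, and each marker difference rests on 1 probe set. MYL2, the ventricular myosin light chain, read 13.60 to 13.89 over the 7 arrays. The summed cardiomyocyte intensity was 67204 to 105862 in controls and 65806 to 88047 in low salt. Of the 9 cardiomyocyte markers, 2 had an unadjusted p under 0.05 in limma, where 11.0% of all tested probe sets did. ACTN2 differed by -0.27 ± 0.12 (SE) without overlap and TNNI3 by 0.25 ± 0.11 (SE) with overlap. Their adjusted p in limma was 0.441 and 0.422. Sums for fibroblasts, endothelium, smooth muscle, macrophages, adipocytes, erythroid cells and atrial or Purkinje cells overlapped between the groups (exact two-sided permutation p from 0.457 to 1). The erythroid value was that of 1 gene, ALAS2 (5.52 to 72.1 in deposited intensity). CIDEC and PLIN1, of the 4 adipocyte genes, were too dim to be tested. The sum of the 2 Schwann cell genes measured was 36 to 109 in controls and 4.27 to 38.3 in low salt (exact permutation p = 0.114). Single genes within these sums differed more: MYL4, an atrial myosin light chain, by -2.14 ± 0.65 (SE) with overlapping groups, and CNN1, a smooth muscle gene, by 1.19 ± 0.35 (SE) without overlap, with adjusted p in limma of 0.258 and 0.243. CNN1 was near the bottom of the scale in controls (8.18 to 13.3 in deposited intensity, against 18.3 to 66.4 in low salt). It passed the filter on dim probe sets through its low-salt values. Of 5 ratios of 3' to 5' signal, a measure of RNA quality, both GAPDH ones separated the groups, at 2.43 to 2.78 in controls against 2.03 to 2.41 in low salt and 22.7 to 40.9 against 14.5 to 22.6 (each p = 0.0571, exact permutation test, two-sided). The 3 actin ratios overlapped (exact permutation p from 0.4 to 0.457), and 2 of them had the higher mean in low salt. Medians of deposited intensity were 31.5 to 51.3 in controls and 19.3, 21.6 and 21.8 in 3 low-salt arrays, with low-salt sample 3 at 44.2, and the part of these measures in the DMD, AGRN and CAPN3 differences was not tested. Without low-salt sample 3 the DMD probe set Cfa.3738.1.S1_s_at differed by -1.64, as with it, but was no longer called (adjusted p = 0.0519 in limma). The low-salt arrays left in that fit are the 3 with low medians, so it cannot test the part of the medians.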

How the data were processed

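Each deposited value is the linear intensity of 1 probe set, made with GCOS (Affymetrix software) per the submitters' processing notes, which name no version or summary method. The 2% trimmed mean was 150.0 or 150.1 on all arrays. From these deposited values, log2(value + 16) was computed and quantile normalized, since array medians differed by 0.93. After 111 control probe sets and the dimmest 1 in 3 of the rest were left out, 28616 probe sets were tested in limma 3.58.1 (R 4.3.3, lmFit and eBayes with trend) with Benjamini-Hochberg adjustment, low salt against control. The script was tested on simulated data.

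Members and lists were chosen with earlier results of these data known. Named are all members, wider-list genes at an unadjusted p under 0.05 (at most 6, by smallest p) and the close partners of dystrophin picked by name; TNNI2, PVALB, MYH2 and MYBPC2 are the tested markers of their list. All 7 measured genes were found by gene number in RefSeq's table for UU_Cfam_GSD_1.0, which served for names only. Alternatives were offsets of 1 and 64, values as deposited, equal medians, other filters, array weights, each array left out, a block by sample number and the methods' t-test.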

Additional observations from a re-analysis of the deposited data

Results flagged for a closer look

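In the brightest tested DAG1 probe set, CfaAffx.17467.1.S1_at, low-salt sample 4 lay apart from its group at 8.33, while the other low-salt samples lay between 9.07 and 9.21. Of 21 member probe sets examined in this way this was the 1 found, and chance marks about 1 in 20 groups.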

How the results depend on the processing

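The fall of DMD probe set Cfa.3738.1.S1_s_at kept its direction in all settings run, but its call did not: it differed by -2.08 with an offset of 1 (adjusted p = 0.0775), by -1.64 without a filter (0.104) and by the methods' t-test (0.243), and by -1.71 to -1.45 with 1 array left out. The count of members past the adjusted p was 0 in the first 3 of these settings, where 1 to 4 members had an unadjusted p under 0.05, and 0 to 1 with 1 array left out. At an unadjusted p under 0.05 it was 4 as deposited, with equal medians and without a filter, 5 with array weights, 1 by the methods' t-test and 2 to 4 with 1 array left out. The median over members ran from -0.13 to 0.36. The fall of Cfa.3738.1.S1_s_at was smallest with an offset of 64, at -1.02, and was called there (adjusted p = 0.031 in limma). Other DMD probe sets moved by more than their spread in these cases: CfaAffx.23.1.S1_at to 0.43 with equal medians, Cfa.10388.1.A1_s_at to -0.37 as deposited, and the dim CfaAffx.21285.1.S1_s_at to -2.56 and -0.39 with offsets of 1 and 64. With a replicate block by sample number the called DMD probe set differed by -1.74 (adjusted p = 0.252) and 0 members were called, where all probe sets gave 27 calls against 99. Correlations of deviations between samples of the same number were 0.07, -0.26 and -0.18, and control 4 went best with low-salt sample 3 (0.43). Each of these had the highest deposited median of its group (51.3 and 44.2). Whether the numbers pair the samples therefore cannot be told from these correlations. The settings for the wider list were chosen after seeing the data: its 2 calls became 0 with an offset of 1, without a filter, with the block and by the methods' t-test, and 1 with equal medians, where CAPN3 was lost (adjusted p = 0.054). With offsets of 1 and 64 the called AGRN probe set differed by -3.49 and -1.56 and that of CAPN3 by -1.96 and -1.05. Array number, not depth, limits the precision.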
